A study of Mus musculus with 10 samples.

Results

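Transcripts of the chromatin remodellers other than the INO80 family were measured in mouse spermatogenic cells taken on postnatal day 18, with 5 Ino80WT and 5 Ino80cKO libraries. The set holds 53 genes of the 23420 rows in each count table, chosen by symbol as subunits of the SWI/SNF (25 genes), ISWI (8), CHD (9) and NuRD (9) families, with the ATPases Hells and Atrx. All 53 were present and 52 passed the filter on low counts, which 15265 genes passed in all. The libraries are polyA RNA from digested tubules of mice of mixed background. Ino80cKO mice carry a testis-specific Ino80 deletion made with Stra8-Cre, which acts in male germ cells only, so other cells of the tubule keep the gene. The full alleles and the controls' Cre status are not given in the labels, nor whether each library is 1 animal. The p-values therefore rest on library-to-library spread, some of which may be technical. The gene-level count of Ino80 was 95 ± 12.6 CPM (library-scaled counts, SD) in Ino80WT and 96.1 ± 1.37 CPM in Ino80cKO, and since exons outside the deleted part still count, it does not check the labels.

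Remodellers use ATP to slide, evict or exchange nucleosomes. SWI/SNF complexes open chromatin and come in 3 forms, BAF, PBAF and ncBAF. These share an ATPase and part of the core but differ in other subunits, such as those that read chromatin. ISWI complexes space nucleosomes, with partners such as the BAZ proteins, BPTF or RSF1 that set their targets. The CHD ATPases carry chromodomains, and CHD3, CHD4 and CHD5 join the deacetylases of NuRD in a complex that both remodels and deacetylates nucleosomes. In the testis, male germ cells rely on several of these machines for meiotic prophase and for the later exchange of histones, and the question here is which of their transcripts differ where Ino80 is deleted.

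Gene counts per library ran from 16750609 to 23700094, so that 3 counts, taken as the floor, are 0.127 to 0.179 CPM, a limit that covers counting error only. Ino80WT 1 stood apart by transcript length. With genes split into 4 equal groups by exon length, the longest group (6.68 kb or more) lay 0.20 below the 10-library mean on the log2 scale in it (median) and the shortest group 0.22 above, against at most 0.10 either way in any other library. It also held the most Rn45s, the ribosomal RNA precursor (7.08% of gene counts, with 4.66% in Ino80WT 2 and 1.6% to 3.76% elsewhere). Of the 52 members tested, 30 belong to the longest group. All 27 pachytene spermatocyte markers found were lower in Ino80cKO, summing to 5900.6 to 9640.9 CPM in Ino80WT (highest in library 3) and 2397.6 to 3827.3 CPM in Ino80cKO (lowest in library 3). Of 15 markers of differentiating spermatogonia and meiotic entry, 6 were lower and 2 higher. They summed to 1504.6 to 1934.0 CPM in Ino80WT and 1320.2 to 1459.6 CPM in Ino80cKO. The 16 of undifferentiated spermatogonia (1 lower, 4 higher) summed to 424.9 to 567.4 and 531.7 to 639.7 CPM in the same order. Of peritubular myoid and endothelial markers, 1 of 6 and 0 of 7 were higher, and 0 were lower. The tested Sertoli markers (6 of 14 higher, none lower) summed to 3386.5 to 5245.6 CPM in Ino80WT and 4851.4 to 6640.5 CPM in Ino80cKO, with library 3 lowest in the first group and highest in the second. Leydig markers (5 of 7 tested higher) and leukocyte markers (5 of 11 higher and 1 lower) summed to at most 160.1 and 91.2 CPM in Ino80WT and to at most 249.1 and 133.0 CPM in Ino80cKO. Of 18 round spermatid markers, 11 had under 10 counts in every library, among them the protamines Prm1 and Prm2. Of the 6 tested, 3 fell and 0 rose, and the list summed to 198.7 to 415.5 CPM in Ino80WT and 67.2 to 126.5 CPM in Ino80cKO, mostly from Dkkl1 (209.3 ± 54.6 and 66.9 ± 19 CPM, 3.13-fold lower). Acr and Actl7b were 2.8-fold and 3.46-fold lower. In bulk RNA, fewer cells of a type and less RNA per cell cannot be told apart.

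Of the remodeller subunits tested, 24 changed, in both directions and each by less than 2-fold. In Ino80cKO 9 of 52 members were higher (17.3%, against 18.3% of all genes tested) and 15 were lower (28.8%, against 27.6%). A gene was called at an adjusted p below 0.05 in the quasi-likelihood test of edgeR, adjusted by Benjamini and Hochberg's method over all 15265 genes, and errors of log2 fold changes are SE. Shares this near those of all genes are not a result about the members. None of the 52 was called with a change of at least 2-fold, against 8.46% of all genes. Baz1a, at 1.99-fold, lay just under this limit and passed it in some alternative settings (log2 down to -1.07). The median log2 fold change of the members was 0.00 and that of all genes 0.02. The CPM values of the 2 groups did not overlap for 16 members (30.8%, against 32.0% of all genes). Scaling by library totals alone, which moves the median of all genes to 0.19, gave 25 members higher and 9 lower (35.9% and 19.2% of all genes). Of the 24 calls, 14 held under all 18 alternative settings. These were 9 falls (Baz1a, Arid2, Phf10, Mbd3, Baz2a, Actl6a, Hdac1, Brd7 and Smarcb1) and 5 rises (Arid1b, Gatad2b, Atrx, Chd6 and Gatad2a).

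**Figure D1:**
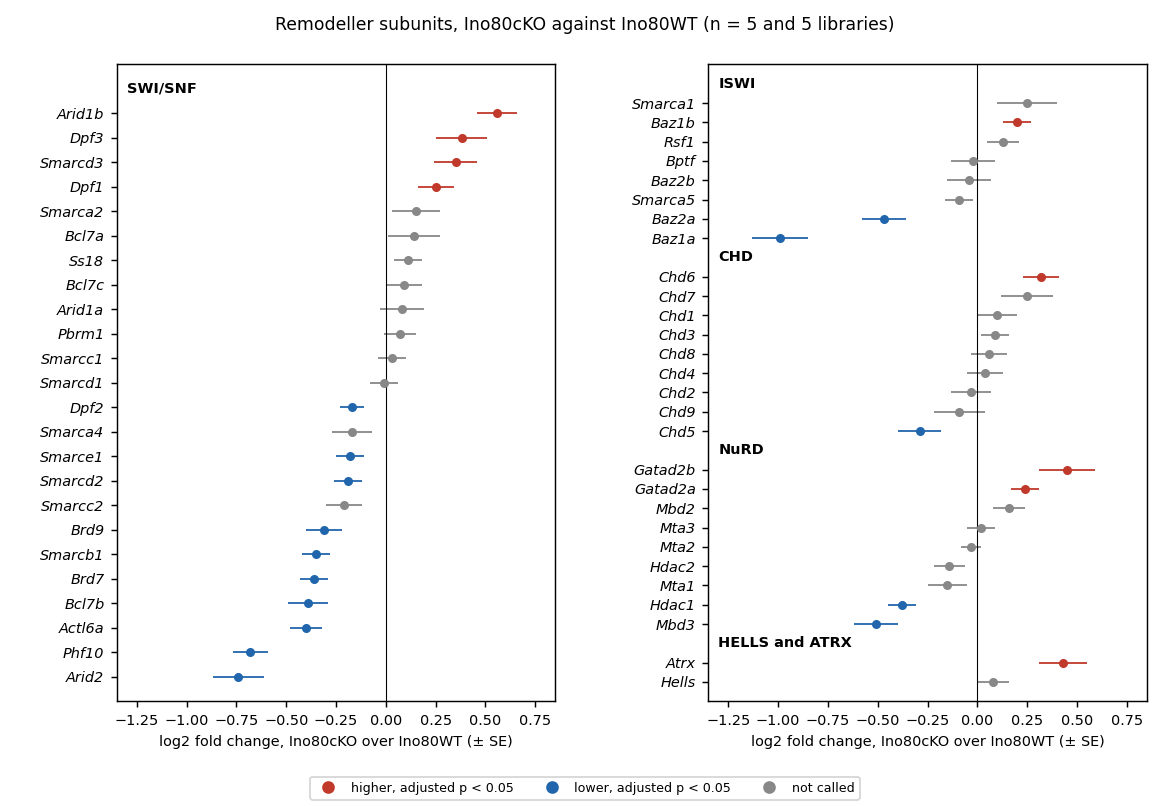
Log2 fold change (Ino80cKO over Ino80WT) with SE for the 52 tested members by family, coloured by call (n = 5 libraries per group). SWI/SNF holds 24 of the 52 members and 10 of the 15 falls (Dpf2 turns to 0.01 by library totals). The points run from -0.99 for Baz1a to 0.56 for Arid1b.

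Within SWI/SNF, 3 of the 4 subunits that mark the PBAF form fell, against 27.6% of all genes. Of the 5 that mark the BAF form 3 rose, against 18.3% of all genes, but of these Arid1b alone kept its call under all 18 alternatives. Neither ATPase was called. In all, 10 of 24 tested members fell (41.7%) and 4 rose (16.7%), and the median log2 fold change was -0.09. By library totals 5 were lower and 10 higher (19.2% and 35.9% of all genes). The number higher was 2 without any one of Ino80WT 3, Ino80WT 5, Ino80cKO 3 or Ino80cKO 4 (14.5% to 15.6% of all genes). No test compares the forms with each other.

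The PBAF subunit Phf10 (chromosome 17, 14945009 to 14961273, minus strand, GRCm38), a PHD-finger protein that reads histone tails, had the smallest adjusted p of the family. Its level was 159.4, 148.9, 188.3, 133.7 and 163.7 CPM in Ino80WT libraries 1 to 5, and 98.1, 95.2, 90.8, 102.4 and 109.6 CPM in Ino80cKO 1 to 5. The groups did not overlap, and the lowest Ino80WT library lay above the highest Ino80cKO library. This is a 1.60-fold fall (log2 -0.68 ± 0.09, adjusted p = 0.000141). The opposite strand holds 1600012H06Rik, which shares 470 exon bases with Phf10 and moved the other way, from 32.3 ± 1.89 to 40.7 ± 3.83 CPM (log2 0.33, adjusted p = 0.00602). Reads of the shared bases cannot be assigned if strand was ignored in counting.

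Arid2 (chromosome 15, 96287518 to 96404992, plus strand), whose ARID protein defines PBAF, stood at 399.8, 615.3, 713.0, 505.6 and 615.1 CPM in Ino80WT and at 322.4, 332.9, 309.5, 387.0 and 355.9 CPM in Ino80cKO. All Ino80cKO libraries were lower than Ino80WT 1, the lowest control, and the fall was 1.67-fold (log2 -0.74 ± 0.13, adjusted p = 0.000924). Brd7, a bromodomain subunit of PBAF, fell from 237.2, 221.9, 226.5, 193.7 and 230.4 CPM to 180.3, 175.3, 169.7, 169.7 and 170.2 CPM (1.28-fold lower, log2 -0.36 ± 0.07, adjusted p = 0.00117), again without overlap. Pbrm1, which encodes the subunit with several bromodomains of the same complex, had no call. It was at 160.1 CPM in Ino80WT 1, 202.8 to 219.1 CPM in the other controls and 206.9 to 218.9 CPM in Ino80cKO (adjusted p = 0.494), and the 95% interval of its fold was 0.927 to 1.19. Brd9, the bromodomain subunit of ncBAF, fell from 89.9 ± 11.1 to 72.4 ± 2.74 CPM (1.24-fold lower, adjusted p = 0.0113), a call lost by library totals, by upper-quartile factors and without Ino80WT 1 and 2.

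Among the BAF subunits, Arid1b (chromosome 17, 4994332 to 5347656, plus strand) had the largest rise of all 52 members. Its level was 43.3, 59.8, 49.8, 61.5 and 57.5 CPM in Ino80WT and 74.2, 78.5, 91.3, 82.9 and 75 CPM in Ino80cKO. The groups did not overlap, and the rise was 1.48-fold (log2 0.56 ± 0.10, adjusted p = 0.000874). Its paralog Arid1a, the other large ARID subunit of BAF, had no call (230.6 ± 32.6 and 244.6 ± 25.1 CPM, adjusted p = 0.532). The PHD-finger subunits Dpf1 and Dpf3, first known from neurons and muscle, rose by 0.25 and 0.38 on the log2 scale from 25.6 ± 2.99 and 12.9 ± 1.43 CPM (adjusted p = 0.039 and 0.0315). Dpf2, the broadly transcribed relative, was lower by log2 -0.17 from 122.1 ± 7.20 to 108.6 ± 2.50 CPM, with a value of 0.01 by library totals. The calls of Dpf1 and Dpf3 were lost in 9 and 5 of the 18 alternatives, and that of Dpf2 in 15 with the sign turned in one more. Dpf3 lost its call without Ino80WT 3, Ino80cKO 3 or Ino80cKO 4 (adjusted p = 0.0646, 0.0597 and 0.0629 in edgeR's test), and Dpf1 and Dpf2 lost theirs in 7 and 8 of the 10 fits without 1 library.

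The ATPases had no call. Smarca4, which encodes BRG1, was at 361.9, 410.3, 536.3, 397.3 and 402.4 CPM in Ino80WT and at 354.7 to 398.9 CPM in Ino80cKO (log2 -0.17 ± 0.10, adjusted p = 0.187, 95% interval of the fold 0.768 to 1.04). Smarca2, which encodes BRM, was at 228.3 to 358.4 CPM and 271.7 to 353.5 CPM (log2 0.15 ± 0.12, adjusted p = 0.296, interval 0.933 to 1.33). Of the 7 core subunits, not all of them in every form, 3 were lower and 1 higher, against 27.6% and 18.3% of all genes. Smarcb1, which anchors the complex on the nucleosome, fell from 90.6, 87.5, 97.3, 77 and 82.4 CPM to 68.8, 68.3, 63.4, 67.5 and 72.8 CPM (1.28-fold lower, log2 -0.35 ± 0.07, adjusted p = 0.00249), without overlap. Smarce1 and Smarcd2 were 1.13-fold and 1.14-fold lower (adjusted p = 0.0477 and 0.0407), calls lost in 16 and 15 of the 18 alternatives, 8 and 7 of them fits without 1 library. Smarcd3, the scarcest of the 3 BAF60 genes, rose 1.28-fold, from 14.1 ± 2.33 to 18 ± 0.701 CPM (adjusted p = 0.0234, and 0.0569 without Ino80WT 5). It shares 2466 exon bases with Chpf2 on the opposite strand, which had no call (20.4 and 22.1 CPM). Here too, reads of the shared bases cannot be assigned if strand was ignored in counting. The scaffolds Smarcc1 and Smarcc2 and the subunit Smarcd1 had no call (adjusted p = 0.736, 0.0821 and 0.888).

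Actl6a (chromosome 3, 32706298 to 32726973, plus strand) encodes the actin-related protein BAF53A, which binds the ATPase and also serves the INO80 and TIP60 complexes. It was at 105.0, 98.4, 119.0, 102.7 and 105.0 CPM in Ino80WT and at 77.8, 88.6, 71.7, 80.9 and 83.3 CPM in Ino80cKO. The groups did not overlap (1.32-fold lower, log2 -0.40 ± 0.08, adjusted p = 0.00125). Its neighbour Mrpl47 shares 452 exon bases on the opposite strand and was lower too (log2 -0.87, adjusted p = 0.000105). As for Phf10, reads of the shared bases cannot be assigned if strand was ignored in counting. Actl6b, the form of neurons, had 0 to 4 counts per library and was the member left out by the filter. Of the ATPase-bound subunits, Bcl7b fell 1.31-fold (45.8 ± 6.80 to 34.9 ± 3.03 CPM, adjusted p = 0.0083), a call lost by library totals, while Bcl7a, Bcl7c and Ss18 had log2 values of 0.14, 0.09 and 0.11 and no call.

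To show what precedes the start sites of members that moved either way, the 250 bases before the RefSeq start are given for Phf10 and Mbd3, which fell, and Chd6 and Gatad2a, which rose (GRCm38.p6, minus strand for all 4, read 5′ to 3′). Capitals mark the CCAAT box, written CCAAT or, on the other strand, ATTGG. The windows are Phf10 at chr17:14961261-14961510, Mbd3 at chr10:80399532-80399781, Chd6 at chr2:161109087-161109336 and Gatad2a at chr8:69996385-69996634.
Phf10: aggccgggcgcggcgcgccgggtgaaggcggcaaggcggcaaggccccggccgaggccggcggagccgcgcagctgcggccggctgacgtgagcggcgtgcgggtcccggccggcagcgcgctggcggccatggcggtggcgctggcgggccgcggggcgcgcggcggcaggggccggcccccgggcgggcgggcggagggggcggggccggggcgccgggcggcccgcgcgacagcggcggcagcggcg
Mbd3: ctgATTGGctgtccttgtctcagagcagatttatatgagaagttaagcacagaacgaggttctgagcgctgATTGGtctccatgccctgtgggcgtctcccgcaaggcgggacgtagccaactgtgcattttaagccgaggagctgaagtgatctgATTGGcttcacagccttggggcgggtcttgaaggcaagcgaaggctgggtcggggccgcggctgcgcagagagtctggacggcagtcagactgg
Chd6: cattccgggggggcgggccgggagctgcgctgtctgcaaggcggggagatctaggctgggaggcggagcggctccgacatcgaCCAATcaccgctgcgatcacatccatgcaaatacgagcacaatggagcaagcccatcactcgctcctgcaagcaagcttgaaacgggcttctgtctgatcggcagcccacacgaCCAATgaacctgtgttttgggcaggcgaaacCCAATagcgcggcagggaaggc
Gatad2a: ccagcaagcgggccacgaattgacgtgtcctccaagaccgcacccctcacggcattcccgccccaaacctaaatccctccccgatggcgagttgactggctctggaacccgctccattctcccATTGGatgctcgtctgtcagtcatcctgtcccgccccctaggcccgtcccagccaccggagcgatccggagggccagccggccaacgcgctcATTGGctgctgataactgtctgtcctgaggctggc

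The Phf10 window held 51 CpG dinucleotides and 0 CCAAT boxes, and the other 3 held 14 to 19 CpG and 2 or 3 CCAAT boxes. Gatad2a has another RefSeq start, whose window (chr8:69974384-69974633, not printed) held 20 CpG and 0 CCAAT boxes. RefSeq windows were matched for 40 of the 53 members (47 windows, some genes having 2). Among the members that fell, Baz1a and Arid2, the largest falls, and Hdac1 and Smarce1 had no matched window. At least 1 CCAAT box stood (in either window of a gene with 2) before 7 of the 9 genes that rose, 2 of 11 matched genes that fell (Mbd3 and Dpf2) and 4 of 19 matched genes without a call, against 33.8% of all 32851 windows. The MYB motif CAACNG stood before 3 of 9, 3 of 11 and 8 of 19 genes in the same order (29.3% of all windows), and the short CRE motif TGACGT before 2, 2 and 2 (6.47% of all windows). Each motif was searched on both strands, no motif contains another, and a match in these letters is a description and no evidence of binding. Members' windows held a median of 21 CpG, against 6 over all windows, which include those of non-coding genes. Motif shares over all windows count windows and not genes, and come from windows poorer in CpG. They are therefore no like background for the members.

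In the ISWI family 3 of the 6 partner subunits were called and neither ATPase was. In all, 2 of 8 members fell and 1 rose, against 27.6% and 18.3% of all genes, and the median was -0.03. Scaling by library totals gave 2 lower and 3 higher (19.2% and 35.9% of all genes). Smarca5 (SNF2H), the main ISWI ATPase, had no call at 500.6, 448.5, 534.5, 490.0 and 559.0 CPM in Ino80WT and 460.5 to 500.3 CPM in Ino80cKO (adjusted p = 0.345, interval of the fold 0.842 to 1.05). Its X-linked paralog Smarca1 (SNF2L) had none either at 58.7 to 106.1 and 81.4 to 124.0 CPM (adjusted p = 0.188, interval 0.948 to 1.5).

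Baz1a (chromosome 12, 54892989 to 55014348, minus strand) had the largest change of all members. It encodes ACF1, the partner of SNF2H in the ACF and CHRAC complexes, and is known to be needed for male fertility in mice. Its level was 292.9, 324.7, 462.9, 268.2 and 379.0 CPM in Ino80WT and 170.5, 178.3, 141.7, 190.9 and 188.8 CPM in Ino80cKO. Every Ino80cKO library was below every control, with Ino80WT 3 highest and Ino80cKO 3 lowest, as for the pachytene markers. The fall was 1.99-fold (log2 -0.99 ± 0.14, adjusted p = 0.000203), and log2 -0.77 without those 2 libraries (adjusted p = 0.000128). Over the 18 alternatives the log2 value of Baz1a ran from -1.07 to -0.77. A predicted gene, Gm20403, shares 346 exon bases with Baz1a on the same strand.

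Baz2a (chromosome 10, 128091577 to 128129303, plus strand), which encodes TIP5, the partner of SNF2H in the nucleolar complex NoRC, was at 433.0, 626.9, 685.2, 577.6 and 639.3 CPM in Ino80WT and at 402.3, 411.0, 429.2, 480.6 and 420.7 CPM in Ino80cKO. Only Ino80WT 1 reached into the range of Ino80cKO, and the fall was 1.38-fold (log2 -0.47 ± 0.11, adjusted p = 0.00518), and log2 -0.54 without that library. Baz1b, whose product WSTF forms WICH with SNF2H, moved the other way. It rose from 192.7, 220.2, 228.9, 233.8 and 214.3 CPM to 251.2, 237.4, 245.6, 253.9 and 262.4 CPM, without overlap (1.15-fold, log2 0.20 ± 0.07, adjusted p = 0.0322). The call was lost in 5 of the 10 fits that left out 1 library (Ino80WT 2 or 5, Ino80cKO 1, 4 or 5), with adjusted p from 0.0535 to 0.0677 there. Baz2b, Bptf and Rsf1 had log2 values of -0.04, -0.02 and 0.13 and no call.

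Of the 9 CHD ATPases 1 was higher and 1 lower (11.1% each, against 18.3% and 27.6% of all genes), with a median of 0.06. By library totals 6 were higher and 0 lower (35.9% and 19.2% of all genes). Chd4, the main ATPase of NuRD, had the highest level per length of all members and no call, at 545.5, 669.4, 777.0, 665.7 and 657.2 CPM in Ino80WT and 633.1 to 732.0 CPM in Ino80cKO (adjusted p = 0.751, interval of the fold 0.895 to 1.18). Chd3 had no call either (309.9 ± 18.3 and 329.9 ± 17.8 CPM, adjusted p = 0.298). Chd6 (chromosome 2, 160946978 to 161109075, minus strand), of the CHD6 to CHD9 group, rose from 134.1, 178.2, 159.7, 186.3 and 177.6 CPM to 189.6, 215.7, 234.4, 198.5 and 203.2 CPM. The groups did not overlap (1.25-fold, log2 0.32 ± 0.09, adjusted p = 0.0165). Chd5, known for the histone exchange of spermatids, was at 11.9 to 17.5 CPM in Ino80WT and 10.8 to 12.8 CPM in Ino80cKO, a fall of 1.23-fold (log2 -0.29 ± 0.11, adjusted p = 0.0477) that 16 of 18 alternatives did not call, 8 of them fits without 1 library. Chd1, Chd2, Chd7, Chd8 and Chd9 had log2 values from -0.09 to 0.25 and no call.

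Among the NuRD subunits Mbd3 and Hdac1 fell and both GATAD2 genes rose. In all, 2 of 9 members fell and 2 rose (22.2% each, against 27.6% and 18.3% of all genes), and the median was -0.03. By library totals 2 were lower and 4 higher (19.2% and 35.9% of all genes). Mbd3 (chromosome 10, 80392539 to 80399550, minus strand), whose methyl-CpG-binding-like protein holds the deacetylase and ATPase parts together, was at 119.6, 106.8, 135.8, 90.1 and 97.2 CPM in Ino80WT and at 76.4, 75, 65.5, 82.6 and 85.8 CPM in Ino80cKO. The groups did not overlap (1.43-fold lower, log2 -0.51 ± 0.11, adjusted p = 0.0031). Mbd2, which takes the same place in a separate NuRD and binds methylated DNA, had no call (39.9 ± 2.56 and 44.4 ± 3.26 CPM, adjusted p = 0.107).

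The deacetylase gene Hdac1 (chromosome 4, 129516104 to 129542713, minus strand) fell from 199.8, 174.0, 204.4, 182.3 and 181.5 CPM to 143.9, 142.3, 133.0, 144.2 and 158.7 CPM, without overlap (1.3-fold lower, log2 -0.38 ± 0.07, adjusted p = 0.00103). Hdac2 was at 178.7 to 228.3 and 174.0 to 195.6 CPM and had no call (adjusted p = 0.147). Gatad2a, whose zinc-finger protein links MBD to the ATPase, rose from 122.9, 129.4, 123.6, 135.7 and 113.3 CPM to 141.0, 144.1, 162.1, 152.3 and 141.3 CPM (1.19-fold, log2 0.24 ± 0.07, adjusted p = 0.0127), without overlap. Its paralog Gatad2b rose from 29.4, 48, 53.1, 52.6 and 49.6 CPM to 55.4, 61.5, 70.1, 63.9 and 67.6 CPM (1.37-fold, log2 0.45 ± 0.14, adjusted p = 0.0198), with Ino80WT 1 far below the other controls, and by log2 0.35 without it (adjusted p = 0.00417). The 3 MTA genes, which carry the HDAC-binding subunits, had no call, with Mta2 at 164.2 ± 1.49 and 160.7 ± 3.95 CPM.

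Of the 2 remaining ATPases, Atrx rose and Hells had no call. Atrx (chromosome X, 105797615 to 105929403, minus strand), which places histone H3.3 in heterochromatin with DAXX, was at 107.4, 139.0, 132.8, 151.4 and 156.0 CPM in Ino80WT and at 153.8, 189.3, 232.2, 169.6 and 178.7 CPM in Ino80cKO. Ino80cKO 1 lay just below the highest control and the other 4 above all controls (1.34-fold, log2 0.43 ± 0.12, adjusted p = 0.0124). Of the 557 X-linked genes tested, 49.6% were higher, with a median of 0.34, against 17.4% and 0.00 for the autosomes. Hells, which is needed for DNA methylation, was at 265.6 to 351.8 and 313.2 to 343.1 CPM (adjusted p = 0.453).

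**Figure D2:**
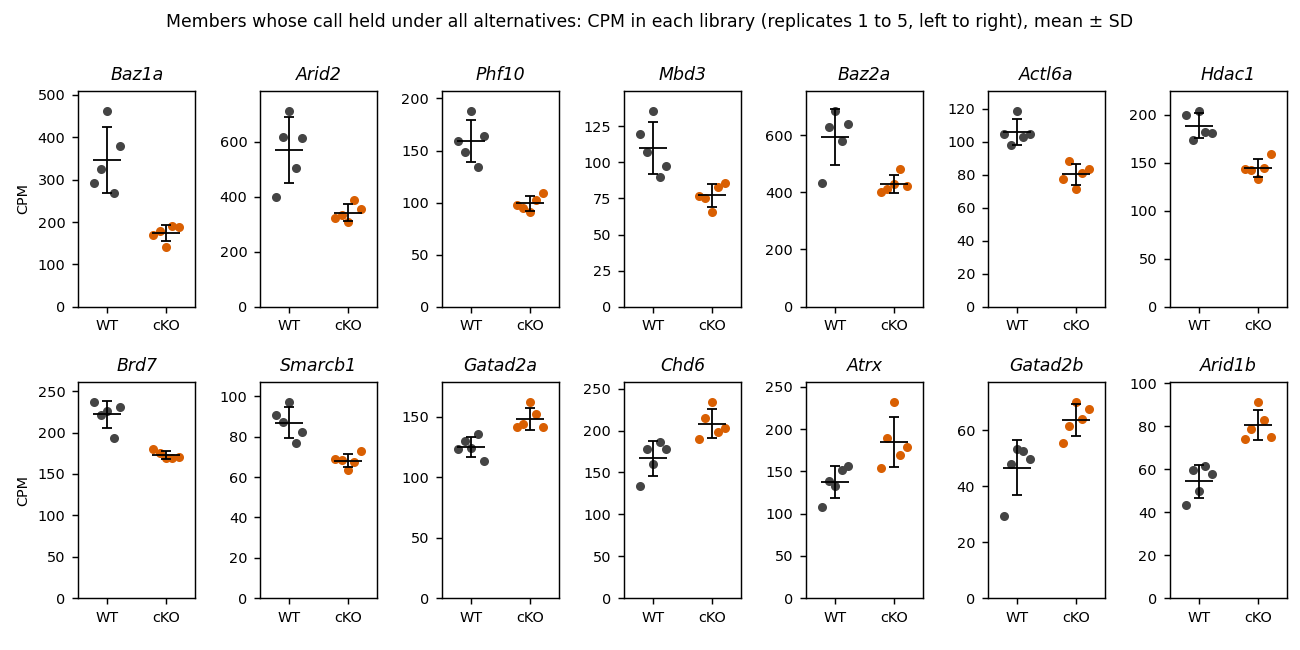
CPM in each library for the 14 members whose call held under all 18 alternatives, with mean ± SD (n = 5 per genotype, axes from 0). Of these, Baz2a and Atrx have groups that touch, and the other 12 do not overlap.

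Of the 15 members that fell, 10 were highest in Ino80WT 3 and 7 of these were also lowest in Ino80cKO 3, the order of the pachytene markers. Of the 9 that rose, 7 were highest in Ino80cKO 3, where the Sertoli markers were also highest, and 6 were lowest in Ino80WT 1, the library low in long transcripts. Each single extreme was also seen among members without a call, but the joint order of the pachytene markers was rare there. Of the 28 without a call, 13 were lowest in Ino80WT 1, 9 were highest in Ino80cKO 3 and 9 highest in Ino80WT 3. Only 1 of the 28 was both highest in Ino80WT 3 and lowest in Ino80cKO 3. Calls and extremes come from the same values, so these counts are a description. Arid1b, Gatad2b, Chd6 and Atrx have 12.6, 11.44, 19.09 and 21.76 kb of exon, and among all genes of the longest group 25.6% were higher and 20.2% lower, against 10.4% and 34.8% of the shortest. Without Ino80WT 1 the log2 values of Arid1b, Gatad2b, Chd6 and Atrx were 0.51, 0.35, 0.27 and 0.37. Without Ino80WT 3 and Ino80cKO 3, an alternative chosen after seeing the data, 6 members were higher and 11 lower, and all 14 members named above as holding kept their call. The part of cell composition in the changes was not tested.

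**Figure D3:**
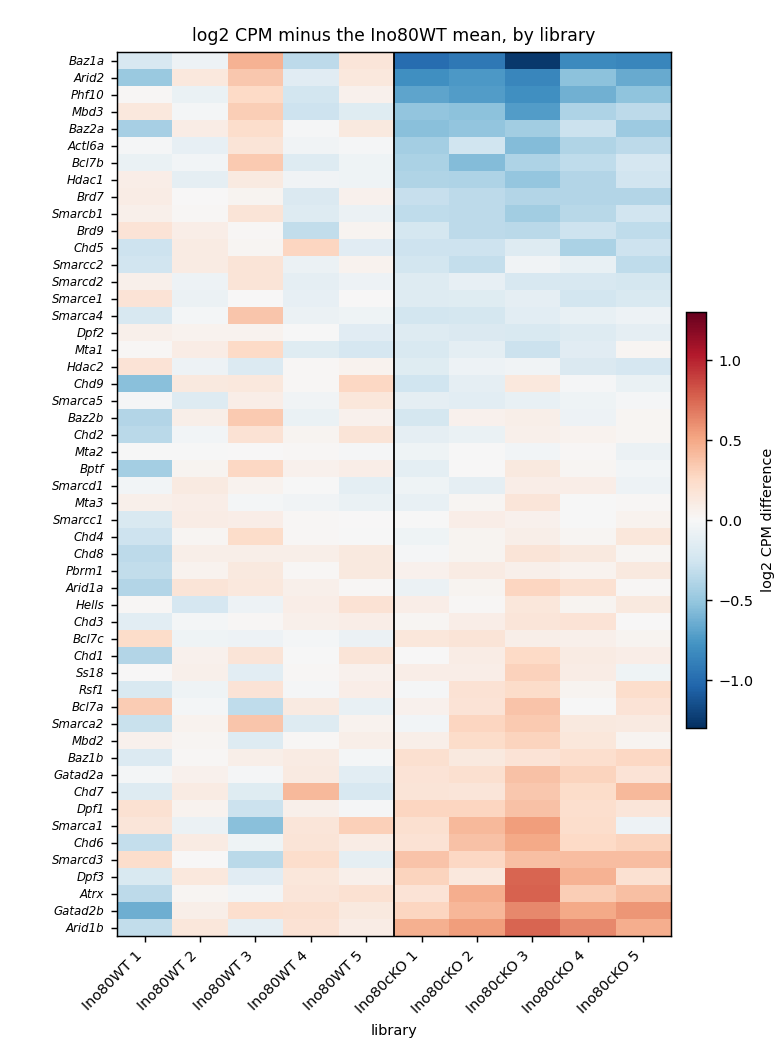
Log2 CPM of each member in each library minus its Ino80WT mean, ordered by fold change from Baz1a (top) to Arid1b (bottom). Ino80cKO 3 holds the deepest fall of Baz1a and the highest Arid1b level (91.3 CPM), and Ino80WT 1 is low in long genes such as Gatad2b (29.4 CPM).

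The ratio of paralogs within a library does not depend on scaling. No share of changed ratios among other pairs of genes was taken, and 18.3% of all genes were higher and 27.6% lower. The counts of pairs below are therefore a description and no result about these complexes. Of 21 pairs with both genes tested, 12 had a changed log2 ratio at an adjusted p below 0.05 (exact two-sided permutation test over libraries, Benjamini-Hochberg over the pairs), 8 of them without overlap and so at the smallest p the design allows (p = 0.00794, adjusted p = 0.0208 in the permutation test). In PBAF and BAF the ratio of Arid1a to Arid2 was -1.19, -1.26, -1.5, -1.08 and -1.42 on the log2 scale in Ino80WT and -0.57, -0.51, -0.15, -0.56 and -0.63 in Ino80cKO, a shift of 0.81 towards Arid1a. The ratio of Arid1a to Arid1b shifted by -0.48, from 2.08 ± 0.15 to 1.60 ± 0.04. The ratio of Smarca4 to Smarca2, neither of which was called alone, was 0.66, 0.52, 0.58, 0.68 and 0.49 in Ino80WT and 0.38, 0.08, 0.10, 0.36 and 0.41 in Ino80cKO, a shift of -0.32. Their exon lengths differ, at 6.47 and 14.27 kb, and without Ino80WT 1 and 2 the adjusted p of this pair was 0.0625 (exact permutation test).

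The largest shift was that of Baz1a to Baz1b. It was 0.60, 0.56, 1.02, 0.20 and 0.82 in Ino80WT and -0.56, -0.41, -0.79, -0.41 and -0.47 in Ino80cKO, a 2.25-fold change of the ratio. Counts are not corrected for exon length (7.16 and 13.67 kb with all annotated exons merged). Per kb of this merged length Baz1a was at 48.3 and Baz1b at 15.9 CPM per kb in Ino80WT. In Ino80cKO they were at 24.3 and 18.3 CPM per kb. Merged exons can be longer than the transcripts present, so which of the 2 has more transcripts in Ino80cKO is not settled. Baz2a to Baz2b shifted by -0.42, from 2.50 ± 0.08 to 2.08 ± 0.15, and Mbd2 to Mbd3 by 0.66, from -1.45 ± 0.31 to -0.79 ± 0.25. Chd4 to Chd5 shifted by 0.33 and Smarcd1 to Smarcd3 by -0.38. The other 4 pairs past the threshold, with overlap, were Smarcc1 to Smarcc2 (0.24), Bcl7a to Bcl7b (0.54), Bcl7b to Bcl7c (-0.48) and Chd1 to Chd2 (0.13). Hdac1 to Hdac2 shifted by -0.25 and did not pass (adjusted p = 0.0641, exact permutation test), nor did Chd3 to Chd4 at 0.05 or the MTA, GATAD2 and Brd7 to Brd9 pairs. Of the 12 pairs, 6 passed in each of the 10 sets that left out 1 library: both ARID pairs, both BAZ pairs, the SWI/SNF ATPases and Mbd2 to Mbd3. The number that passed fell to 7 without Ino80cKO 2 or Ino80cKO 4. Without Ino80WT 3 and Ino80cKO 3 no pair passed (adjusted p = 0.075 for the 8 pairs without overlap, exact permutation test, each at p = 0.0286, the smallest that 4 against 4 allows), and the Baz1a to Baz1b shift was -1.01.

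**Figure D4:**
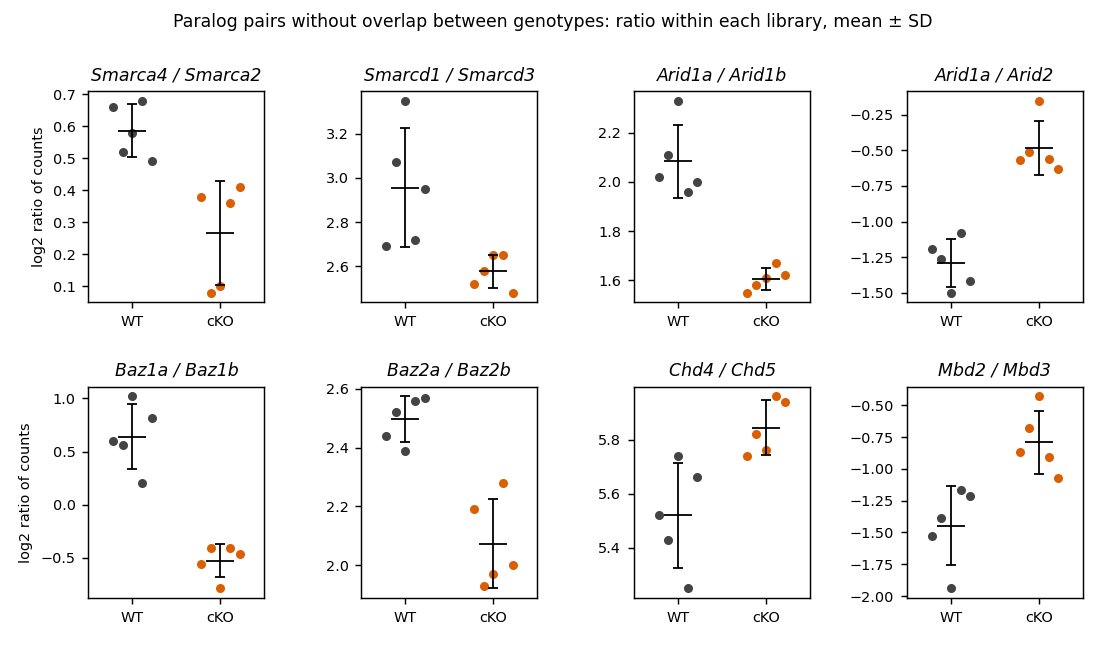
Log2 ratio of counts of 2 paralogs in each library, with mean ± SD (n = 5 per genotype), for the 8 pairs whose genotypes do not overlap. The Baz1a to Baz1b ratio has the largest shift (-1.17), and its 0 has no meaning of its own since the ratio is of counts and not of levels per kb.

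Levels between genes were compared as CPM per kb of annotated exon (GENCODE M21, all exons of a gene merged). Merged exons can be longer than the transcripts present, which lowers the value per kb, so the orders below hold for this measure only. In Ino80WT, Chd4 was highest at 82.7 ± 10.2 CPM per kb, followed by Smarca4 at 65.1 ± 10.3, Smarca5 at 65.1 ± 5.46, Mbd3 at 55.3 ± 9.18 and Baz2a at 55.2 ± 9.04 CPM per kb. Chd4 exceeded the next 2 by more than their SD. Smarca4 and Smarca5 did not differ, nor did Mbd3 and Baz2a, beyond their SD. Their paralogs stood lower, with Smarca2 at 19.7 ± 3.50, Smarca1 at 14.2 ± 2.98, Chd3 at 36.7 ± 2.17 and Chd5 at 1.51 ± 0.227 CPM per kb. The lowest tested members were Chd7 at 0.878 ± 0.175 and Bcl7a at 1.15 ± 0.191 CPM per kb. Baz1a was at 48.3 ± 10.8 CPM per kb in Ino80WT, within 1 SD of Baz2a, and at 24.3 CPM per kb in Ino80cKO, where Baz2a was at 40.0.

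**Figure D5:**
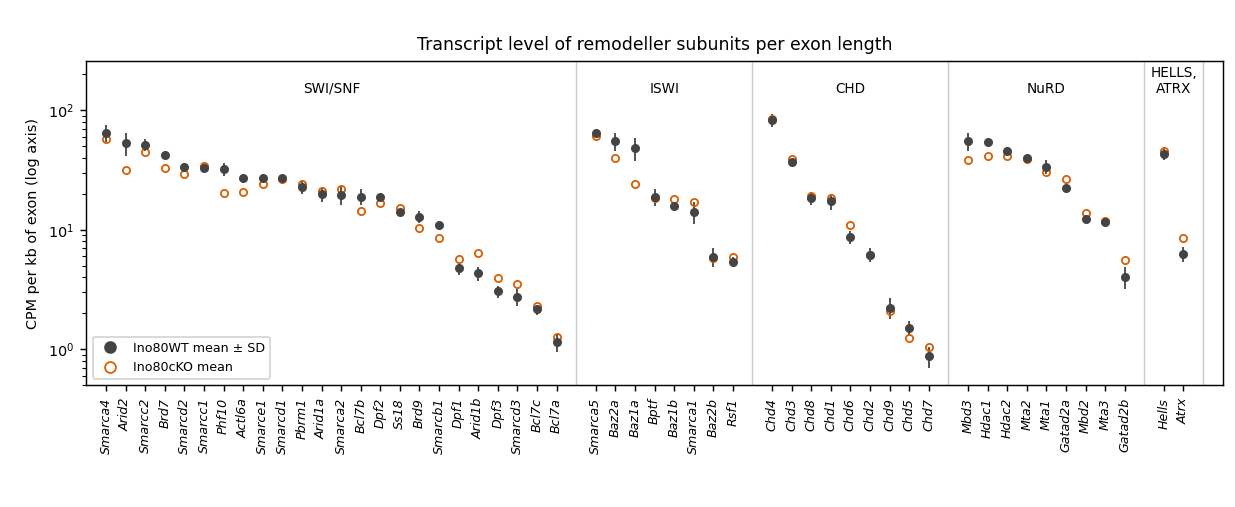
Level per exon length (CPM per kb, log axis) of the tested members by family, with Ino80WT mean ± SD as filled points and the Ino80cKO mean as open points (n = 5 each). The order within families is led by Smarca4, Smarca5, Chd4 and Mbd3 in Ino80WT.

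Other genes of the same complexes and further remodelling ATPases, listed by membership, changed in both directions. In all, 5 of 20 tested genes fell and 5 rose, against 27.6% and 18.3% of all genes, and the median was 0.12. By library totals 3 were lower and 11 higher (19.2% and 35.9% of all genes). Without any one of Ino80WT 3, Ino80cKO 1, Ino80cKO 2 or Ino80cKO 4, 3 were higher (14.0% to 15.6% of all genes). Chrac1 and Pole3, the histone-fold partners of BAZ1A in CHRAC, fell from 65.9 ± 14.4 to 31.6 ± 5.32 CPM (log2 -1.06 ± 0.15, adjusted p = 0.0002) and from 81.6 ± 6.98 to 62.6 ± 4.34 CPM (log2 -0.38 ± 0.08, adjusted p = 0.00189). Chd1l, a remodeller drawn to sites of DNA damage, fell from 155.4 ± 27.5 to 85.9 ± 11.6 CPM (log2 -0.85 ± 0.12, adjusted p = 0.000219). The NuRD histone chaperone Rbbp4 was lower by log2 -0.28 (adjusted p = 0.00753) and its X-linked paralog Rbbp7 higher by 0.27 (adjusted p = 0.0328). Rad54l was also lower (log2 -0.24, adjusted p = 0.0479), and Actb, Ss18l1, Gltscr1 and Cdk2ap2 were higher by 0.42, 0.32, 0.50 and 0.33 on the log2 scale. Actb is the cytoplasmic actin of every cell as well as a BAF subunit. Daxx, the partner of ATRX, had no call (138.3 and 127.3 CPM, adjusted p = 0.275).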

How the data were processed

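PolyA RNA of spermatogenic cells from postnatal day 18 was sequenced in 5 Ino80WT and 5 Ino80cKO libraries. The deposited values are whole-number read counts per gene, made by the authors. TopHat2, HTSeq and DESeq2 are listed in the submitters' processing notes, along with mm10 as the build and no versions. Neither the annotation nor the strand setting was stated in the labels. The 5 rows that name no gene, such as ambiguous or unaligned reads, held 35.5% to 44% of each table and stayed out of library sizes.

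The 53 members, the marker lists, the paralog pairs and the tests were chosen with earlier results of these data known. Genes named with values are the members, fixed by symbol, and the called genes of the fixed list of other subunits. Genes passing edgeR's filter (minimum count 10, minimum total 15) were scaled by TMM and fitted with edgeR 4.0.16 (quasi-likelihood test, robust, genotype as the only term, R 4.3.3). P-values were adjusted by Benjamini-Hochberg over all 15265 genes at a threshold of 0.05, and the same steps were run on simulated data. In the simulation few genes changed, evenly up and down, so it does not check the scaling for data where many genes change. CPM are counts scaled to the TMM-adjusted library size. Paralog ratios were compared by an exact two-sided permutation test.

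Exon lengths and gene positions came from GENCODE M21 (GRCm38, the same assembly as mm10), matched by symbol to 93.4% of tested genes, and promoter windows from RefSeq (GRCm38.p6). Alternatives were library totals, upper-quartile factors, no filter, a replicate block, leaving out Rn45s, Ino80WT 1 and 2 or each library, and DESeq2 1.42.0. Leaving out Ino80WT 3 and Ino80cKO 3 together was added after seeing the data. No 2 libraries of a group agreed within sampling noise (chi-square of at least 9.43 per degree of freedom).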

Additional observations from a re-analysis of the deposited data

Results flagged for a closer look

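In 8 of 104 groups of 5 libraries examined (52 members in each genotype) 1 library stood apart by Dixon's test at the 95% level, where chance gives about 1 in 20 groups. Ino80WT 1 stood apart for 4 members. It was low for Pbrm1 (160.1 CPM, others 202.8 to 219.1 CPM), Chd8 (238.6 CPM, others 318.6 to 330.1 CPM) and Gatad2b (29.4 CPM, others 48 to 53.1 CPM), and high for Bcl7c (18.3 CPM, others 14.7 to 15.2 CPM). Ino80WT 3 stood apart for 3 members. It was high for Smarca4 (536.3 CPM, others 361.9 to 410.3 CPM) and Bcl7b (57.7 CPM, others 40.4 to 44.2 CPM) and low for Mbd2 (35.5 CPM, others 40.1 to 41.9 CPM). In Ino80cKO 2, Smarcd3 was low (16.8 CPM, others 18.1 to 18.5 CPM).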

How the results depend on the processing

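Over 18 alternatives, 14 of the 24 calls held throughout. Among the 936 values of single members under an alternative, 88 lost a call and 29 gained one. Among called members 1 value turned sign (Dpf2, 0.01 by library totals), and values of uncalled members near 0 also turned, such as Smarca4 (0.01) and Smarca5 (0.09) by library totals. By library totals 25 members were higher and 9 lower (35.9% and 19.2% of all genes), and by upper-quartile factors 18 were higher (32.0% of all genes). In SWI/SNF 10 were higher and 5 lower by library totals, 8 and 6 by upper-quartile factors, 6 were lower without Ino80WT 1 and 2, and 1 was higher without Ino80WT 3 and Ino80cKO 3. In ISWI 3 and 2 were higher under the same 2 scalings, in CHD 6 and 4, and in NuRD 4 by library totals. No CHD member was lower (0) under either scaling, without the filter, Rn45s, Ino80WT 1 and 2 or Ino80WT 3 and Ino80cKO 3, under the block or by DESeq2. Among the other subunits 11 and 10 were higher under the 2 scalings, 2 without Ino80WT 3 and Ino80cKO 3, and 3 were lower under either scaling or without Ino80WT 1 and 2. The cause was not tested.

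Leaving out 1 library gave 6 to 10 members higher and 11 to 14 lower. In the same fits 14.0% to 21.3% of all genes were higher and 23.4% to 28.0% lower. In SWI/SNF 2 to 4 were higher and 7 to 9 lower, in ISWI 0 to 1 higher, and in CHD 1 to 2 higher and 0 to 1 lower. Among other subunits 3 to 6 were higher and 4 to 5 lower. The number of changed paralog pairs was 7 to 11. Without Ino80WT 3 and Ino80cKO 3 it was 0 pairs, since 4 against 4 libraries allow no adjusted p below 0.05 for 8 such pairs.

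With the replicate number as a block 6 members were higher and 11 lower (12.6% and 23.4% of all genes), with 2 higher in SWI/SNF, 0 in ISWI and 2 among other subunits. Same-numbered libraries correlated by -0.47 to 0.196, and 1 of 5 numbers matched best with itself, so the numbers are not taken to pair libraries.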
